A study of Mus musculus with 3 samples.

Results

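The COUP-TF genes *Nr2f1*, *Nr2f2* and *Nr2f6* and the POU3F genes *Pou3f1*, *Pou3f2* and *Pou3f3* encode transcription factors, several of which are tied to upper jaw identity. The 6 genes were taken by gene name, whatever their level, from the 55401 genes in the count tables of 3 Bulk RNA-Seq libraries. All 3 libraries came from surgically separated maxillary processes of *wnt1cre; Rosa26Dlx2/-* embryos at E10.5 and are called OE replicates 1, 2 and 3. The numbers follow the order of deposit and are only names. These embryos carry 1 *Rosa26CAG-LSL-Dlx2-3xFlag* allele, from which Cre under *Wnt1* control switches on *Dlx2* in the neural crest. Epithelium, endothelium and mesoderm of the same process do not descend from cells in which that switch is made. The labels speak of independent RNA samples without giving litters, embryo sex or pooling, so every p-value here measures the spread between these 3 samples. The effect of *Dlx2* on the 6 genes is not addressed, since no wild-type library was analysed here. The question was how much of each gene the OE maxillary process held and how far the libraries differed.

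COUP-TF proteins are orphan nuclear receptors that bind DNA as dimers, often as repressors, and may also pair with retinoid X receptors. In the pharyngeal arches of fish and mouse they favour maxillary over mandibular fate in neural crest cells, and endothelin signalling through *Dlx5*, *Dlx6* and *Hand2* drives the mandibular fate. POU3F proteins bind DNA through a POU-specific domain and a homeodomain, frequently beside a SOX protein. *Pou3f3* is known from the maxillary part of the first arch and is needed for several upper jaw bones, whereas *Pou3f1* and *Pou3f2* are best known from Schwann cells and neurons.

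Paralogs that resemble each other can exchange reads, so the longest stretches of identical coding sequence are shown first. They were found in GENCODE M21 transcripts and are placed on GRCm38, each on the strand of its gene. The *Nr2f1* and *Nr2f2* stretch of 59 bases lies at chr13:78198284-78198342 on the minus strand and at chr7:70360052-70360110 on the minus strand, in the coding exon for the DNA-binding domain. The capitals mark the 23 bases that *Nr2f6* also holds, at chr8:71381081-71381103 on the minus strand. The *Pou3f1* and *Pou3f2* stretch of 38 bases lies at chr4:124658589-124658626 on the plus strand and at chr4:22487155-22487192 on the minus strand, in sequence that codes for the POU-specific domain.
Nr2f1 and Nr2f2: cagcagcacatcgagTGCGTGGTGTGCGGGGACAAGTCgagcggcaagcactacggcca
Pou3f1 and Pou3f2: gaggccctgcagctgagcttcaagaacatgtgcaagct

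Every one of these stretches was shorter than the 150 bp reads. Coding sequences of *Nr2f1* and *Nr2f2* were 83.2% identical over their aligned bases, the highest value of the 6 pairs within the families. *Nr2f6* was 72.1% identical to *Nr2f1* and 70.1% to *Nr2f2*. The POU3F pairs lay between 71.0% and 73.2%, and no POU3F pair shared a stretch of 50 bases.

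*Nr2f1*, known also as COUP-TFI, was the most abundant of the 6 genes. It had 8713, 7147 and 10999 counts in replicates 1, 2 and 3. Scaled to CPM, the counts per 1000000 of a library's total on genes after TMM scaling, these were 226, 201 and 292 CPM, with a mean of 239.5 ± 47.1 CPM (SD, n = 3). Replicate 3 was the highest library and replicate 2 the lowest. Levels were compared between genes only per length, as CPM per kb of exon. On this scale *Nr2f1* measured 44.3, 39.4 and 57.3 CPM per kb and ranked 1059 of 21897 protein-coding genes by its mean. The gene (ENSMUSG00000069171.14) lies at chr13:78188973-78199757 on the minus strand of GRCm38.

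*Nr2f2*, or COUP-TFII, was present at a lower level, with 5168, 3527 and 3727 counts. These were 134, 99.1 and 98.9 CPM, with a mean of 111 ± 20.1 CPM (SD, n = 3). Replicate 1 was the highest, while replicates 2 and 3 were nearly equal. Per length the gene stood at 15.5, 11.5 and 11.5 CPM per kb, rank 3925. *Nr2f2* (ENSMUSG00000030551.14) occupies chr7:70351944-70366735 on the minus strand, and its 8625 exonic bases include transcripts that retain introns.

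*Nr2f6*, or EAR2, is the more distant relative of the other COUP-TF genes in sequence. Its counts were 2016, 2040 and 2064, which gave 52.2, 57.3 and 54.8 CPM and a mean of 54.8 ± 2.54 CPM (SD, n = 3). The libraries were close, with a coefficient of variation (CV) of 4.64%, and only 4.69% of the tested genes had a smaller one, but the CV was 20.5% once a trend on length and GC content was removed. Per length *Nr2f6* measured 17.5, 19.2 and 18.4 CPM per kb, rank 2900. The gene (ENSMUSG00000002393.14) lies at chr8:71374123-71381960 on the minus strand.

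*Pou3f3* held most of the POU3F signal. Counts of 1531, 911 and 1377 gave 39.7, 25.6 and 36.6 CPM, with a mean of 33.9 ± 7.39 CPM (SD, n = 3). Replicate 2 was the lowest library, and replicates 1 and 3 lay closer together. Per length the values were 5.35, 3.45 and 4.93 CPM per kb, rank 7120. *Pou3f3* (ENSMUSG00000045515.4 in the counts, version 3 in the annotation) is a gene of 1 exon at chr1:42695768-42703176 on the plus strand.

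*Pou3f1*, a regulator of myelinating Schwann cells, had 74, 36 and 43 counts. These were 1.92, 1.01 and 1.14 CPM, with a mean of 1.36 ± 0.490 CPM (SD, n = 3), and replicate 1 stood above the other 2. Its per-length level was 0.498, 0.263 and 0.297 CPM per kb. *Pou3f1* (ENSMUSG00000090125.3, 1 exon) lies at chr4:124656807-124660655 on the plus strand.

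*Pou3f2*, a neural factor also called Brn2, was the least abundant. It had 32, 5 and 19 counts, all above the 3 counts set as the limit for a gene at 0. The CPM values were 0.829 (exact Poisson 95% interval 0.567 to 1.17), 0.140 (0.0456 to 0.328) and 0.504 (0.304 to 0.788), with a mean of 0.491 ± 0.345 CPM (SD, n = 3). Without replicate 1 the mean was 0.322 CPM. The interval of replicate 2 did not reach that of replicate 1, whereas it overlapped that of replicate 3. Intervals and limits cover counting error only. Per length *Pou3f2* measured 0.148, 0.0251 and 0.0903 CPM per kb. The gene (ENSMUSG00000095139.2, 1 exon) lies at chr4:22482780-22488366 on the minus strand.

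As *Pou3f1* and *Pou3f2* have a single exon, their low counts were set beside those of olfactory receptor genes, whose coding sequence also lacks introns and which are mostly silent outside the olfactory epithelium. Of 1135 such genes, 1074 (94.6%) had 0 counts in every library. For their means over the libraries the 99th percentile was 0.0189 CPM per kb, and 2 of them reached the mean of *Pou3f2*, 0.0879 CPM per kb. The value of *Pou3f2* in replicate 2, 0.0251 CPM per kb, was close to that percentile, and the level of *Pou3f1* was above it in each library. These are values of single libraries beside a percentile of means, which vary less.

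**Figure D1:**
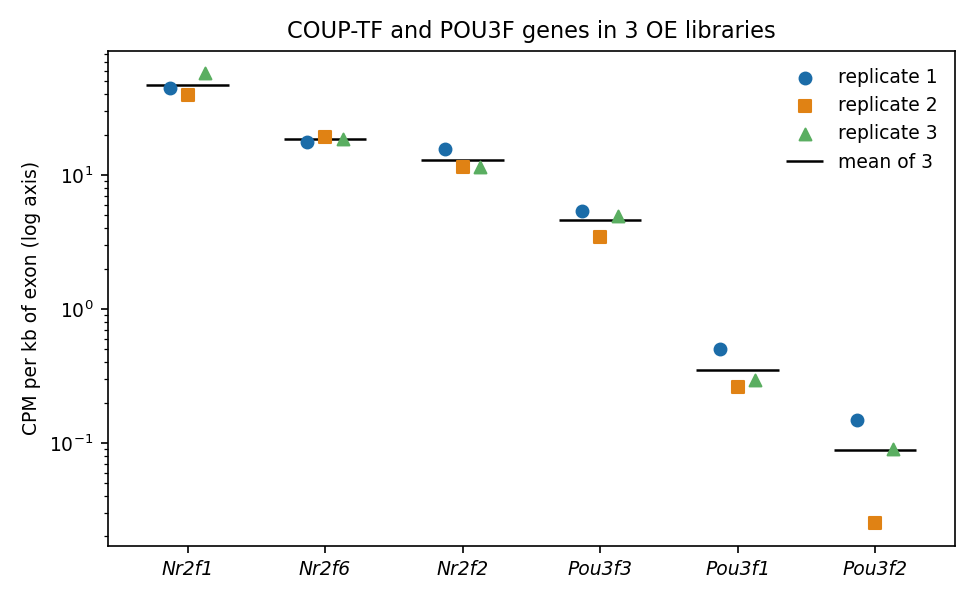
Level of the 6 genes in CPM per kb of exon on a log axis, with 1 point for each OE library and a line at the mean of the 3. *Nr2f1* lies between 39.4 and 57.3 and *Pou3f2* between 0.0251 and 0.148, and on this length the ranges of neighbouring genes do not overlap.

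The order of the 6 genes per length was the same in each of the 3 libraries: *Nr2f1*, *Nr2f6*, *Nr2f2*, *Pou3f3*, *Pou3f1* and *Pou3f2*. On the union of exons, no gene's range over the libraries touched that of its neighbour in this order. Mean *Nr2f1* was 2.56 times mean *Nr2f6*, *Nr2f6* 1.43 times *Nr2f2*, *Nr2f2* 2.80 times *Pou3f3*, and *Pou3f1* 4.01 times *Pou3f2*. The widest step separated *Pou3f3* from *Pou3f1*, with ratios of 10.7, 13.1 and 16.6 in replicates 1, 2 and 3. The order of *Nr2f6* and *Nr2f2* depended on the length used: with coding length *Nr2f2* had 86.1 and *Nr2f6* 44.1 CPM per kb, and with the longest transcript 26.2 and 24.7. The other 4 genes kept their places under both lengths. On exonic bases under no exon of another gene the order held for the means only. Those of *Nr2f1*, *Nr2f6* and *Nr2f2* were 48.2, 40.2 and 13.9 CPM per kb, and the ranges of *Nr2f1* and *Nr2f6* overlapped. In replicate 2 *Nr2f6* was then above *Nr2f1*, at 42.1 and 40.4 CPM per kb.

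On the union of exons, 1 gene of each family held most of its summed level. *Nr2f1* made up 57.3%, 56.2% and 65.8% of the summed COUP-TF level per length, a mean of 59.8% ± 5.23 (SD, n = 3), or 46.8% on bases under no exon of another gene. *Nr2f2* held 20.1%, 16.4% and 13.2%, and *Nr2f6* 22.6%, 27.4% and 21.1%. These 2 shares depended on the length used. With coding length mean *Nr2f2* stood above *Nr2f6* (86.1 and 44.1 CPM per kb), and on unshared bases far below it (13.9 and 40.2). The ratio of *Nr2f1* to *Nr2f2* was 2.86, 3.43 and 5.00. Replicate 3 had the largest share of *Nr2f1* and the smallest of *Nr2f2*. With a trend on length and GC content removed, *Nr2f2* instead had its largest share there (16.0%, 14.4% and 18.8%) and the ratio was lowest there (3.69, 3.94 and 3.36), so the direction of this library difference depends on that step. *Pou3f3* made up 89.2%, 92.3% and 92.7% of the POU3F sum, a mean of 91.4% ± 1.91 (SD, n = 3). The POU3F sum covers only the members and leaves out the paralog *Pou3f4*, at 0.322 CPM per kb, which would lower these shares. *Pou3f1* held 8.30%, 7.02% and 5.57%, and *Pou3f2* 2.47%, 0.672% and 1.70%. The level of *Pou3f3* was 36.1, 137 and 54.7 times that of *Pou3f2*, where the highest ratio rests on 5 counts of *Pou3f2*. The COUP-TF sum was 78.2 ± 8.55 and the POU3F sum 5.02 ± 1.16 CPM per kb (SD, n = 3), and the ratio of the 2 sums was 12.9, 18.7 and 16.4 in replicates 1, 2 and 3.

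**Figure D2:**
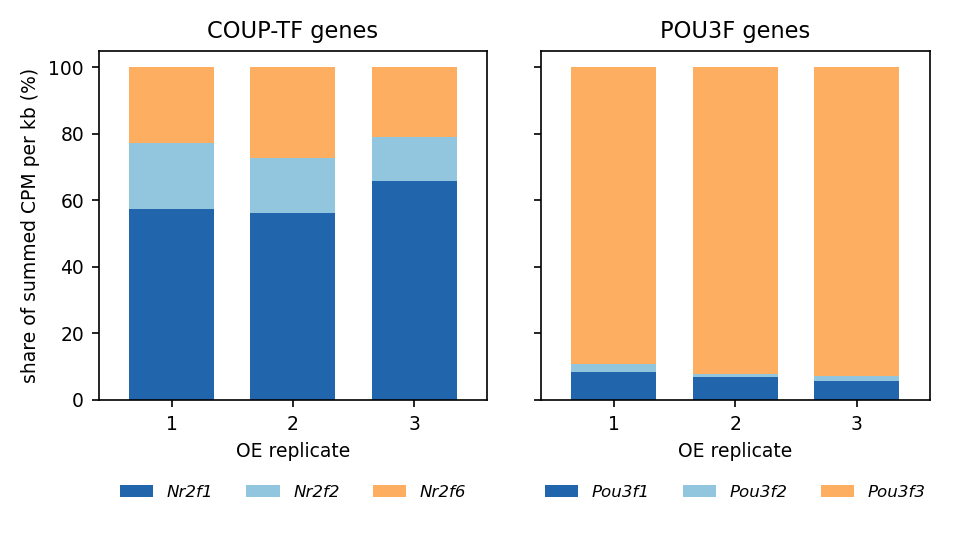
Share of each gene in the summed CPM per kb of the members of its family, in percent, with 1 stacked bar for each OE library. The paralog *Pou3f4* is not in the POU3F sum. On the union of exons, *Nr2f1* takes 56.2% to 65.8% of the COUP-TF sum (a mean of 46.8% on unshared bases) and *Pou3f3* 89.2% to 92.7% of the POU3F sum.

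Exons of other genes lie over some of these sequences. *Nr2f6* shared 1622 of its 2983 exonic bases (54.4%) with exons of *Ocel1*, a protein-coding gene on the opposite strand with 16.2, 16.9 and 22.1 CPM. The shared portion was 8.57% for *Pou3f1* (with *Gm2164*), 7.46% for *Nr2f2* (with *B130024G19Rik*) and 2.42% for *Nr2f1* (with *A830082K12Rik*). *Pou3f2* and *Pou3f3* shared 0 bases, and no member shared bases with a gene of its own strand. The library kit does not mark strand and the strand setting of the counting was not stated, so reads on shared bases cannot be assigned from the counts. Among protein-coding genes with at least 90% of their exonic bases under opposite-strand exons, 45 of 54 (83.3%) were at or under 3 counts in every library, compared with 33.0% of the 15355 genes with no such base. In the class that holds *Nr2f6*, over 50% to under 90%, 35 of 130 genes (26.9%) were at that limit, and of the 4600 genes with a smaller overlap 9.63% were. These shares do not rise steadily with overlap, and their differences were not tested.

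If no fragment on the shared bases had been counted, *Nr2f6* would stand at 38.4, 42.1 and 40.3 CPM per kb of unshared exon and *Nr2f1* at 45.4, 40.4 and 58.7. Their ranges then overlap, and the mean share of *Nr2f1* in the COUP-TF sum is 46.8% in place of 59.8%. The mean of *Nr2f6* is thus 18.4 or 40.2 CPM per kb depending on how the shared bases are treated, and at the higher value *Nr2f6* and *Nr2f1* are not apart by more than their spread. The level of *Nr2f2* moves little, from 12.8 to 13.9 CPM per kb.

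**Figure D3:**
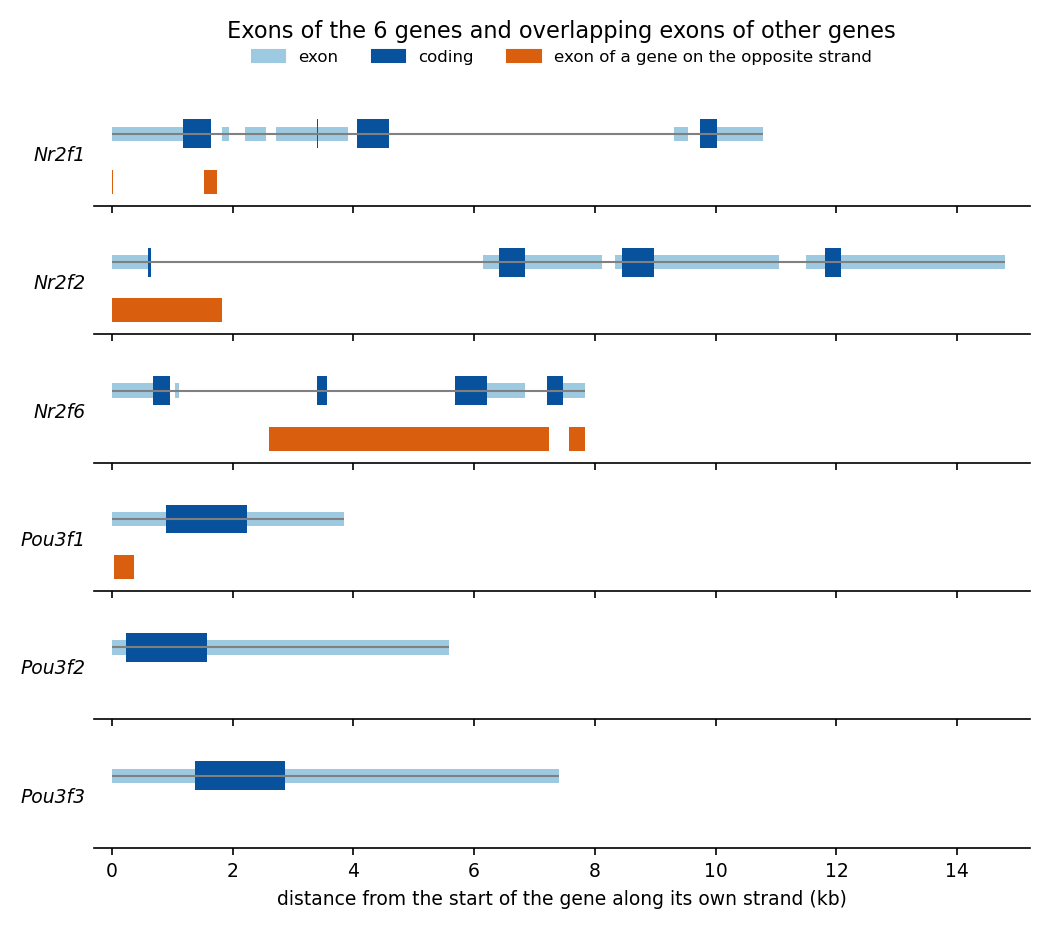
Exons of the 6 genes (light blue), their coding parts (dark blue) and exons of genes on the opposite strand (orange), drawn along the gene's own strand against distance from its start in kb. *Nr2f6* has 54.4% of its exonic bases under orange bars, whereas *Pou3f2* and *Pou3f3* have none.

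Several noncoding transcripts adjoin these genes. *Pantr1*, a long noncoding RNA that starts 925 bases from *Pou3f3* on the opposite strand, measured 1.53, 2.11 and 5.84 CPM. It was highest in replicate 3. *Pou3f3* was highest in replicate 1, or in replicate 3 (36.5, 25.0 and 40.7 CPM) once a trend on length and GC content was removed. *Pantr2*, further along the same strand, had 1, 1 and 8 counts, and *AC122898.1*, which holds *Pou3f3* inside an intron, had 0, 3 and 1. The antisense gene *A830082K12Rik* at *Nr2f1* stood at 6.64 ± 0.366 CPM and *B130024G19Rik* at *Nr2f2* at 3.98 ± 0.548 CPM (SD, n = 3). *Gm38604*, on the strand of *Nr2f1*, ranged from 1 count in replicate 1 to 14 and 52 in replicates 2 and 3. *Gm2164* at *Pou3f1* had 3, 3 and 0 counts and *Gm30731* near *Pou3f2* had 1, 0 and 0, at or under the limit. Beside *Nr2f6*, the protein-coding neighbours *Use1* (50.7, 76.7 and 157 CPM) and *Ushbp1* (9.90, 11.8 and 16.2 CPM) varied more than *Nr2f6* itself.

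Promoter sequence is shown for *Pou3f3* and *Pou3f2*, the most and the least abundant POU3F gene, whose RefSeq and GENCODE start sites coincide. Of the 6 genes, 5 had an entry among the RefSeq promoters (GRCm38.p6) and *Pou3f1* did not match. The 250 bases before the start lie at chr1:42695518-42695767 on the plus strand for *Pou3f3* and at chr4:22488367-22488616 on the minus strand for *Pou3f2*. Capitals mark CCAAT, a common promoter motif, searched on both strands and chosen after the letters had been read.
Pou3f3: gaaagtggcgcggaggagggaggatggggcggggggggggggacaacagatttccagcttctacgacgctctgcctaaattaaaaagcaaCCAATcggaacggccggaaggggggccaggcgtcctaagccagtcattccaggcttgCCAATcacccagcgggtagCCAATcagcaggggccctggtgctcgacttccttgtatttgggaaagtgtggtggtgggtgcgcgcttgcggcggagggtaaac
Pou3f2: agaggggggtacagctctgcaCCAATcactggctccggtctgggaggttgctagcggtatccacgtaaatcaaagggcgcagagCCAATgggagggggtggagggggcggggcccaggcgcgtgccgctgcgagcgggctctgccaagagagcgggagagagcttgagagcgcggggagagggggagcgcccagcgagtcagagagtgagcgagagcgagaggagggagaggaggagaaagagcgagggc

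Motifs were counted in the whole RefSeq windows, which add the 50 bases after the start to the 250 shown. The *Pou3f3* window held 3 matches, a number reached by 3.37% of the 32851 RefSeq promoters of the same length, and that of *Pou3f2* held 2, reached by 11.7%. *Nr2f2* also held 2, while *Nr2f6* and both *Nr2f1* windows held 0, where 37.4% of all promoters held at least 1. TAATTA, a homeodomain core, was found in 0 member windows and in 5.29% of all promoters. The same held for ATGCAAAT, the octamer bound by POU factors (1.74% of promoters), AGGTCA, a nuclear receptor motif (16.3%), and TATAAA (13.6%), each searched on both strands. These matches describe the letters of the windows only.

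The spread of each gene between libraries was compared with counting noise by a chi-square test of its 3 counts, with Benjamini-Hochberg adjustment over the 17115 genes whose mean count reached 10. All 6 genes entered the test and 6 of 6 exceeded counting noise, where 81.5% of all tested genes did. The adjusted p was 2.82e-148 for *Nr2f1*, 3.26e-60 for *Nr2f2*, 1.11e-25 for *Pou3f3*, 0.000236 for *Pou3f2*, 0.00190 for *Pou3f1* and 0.0164 for *Nr2f6*. With all libraries, 6 of 6 is not far from that background. Without replicate 1 the call was lost for *Nr2f2* (adjusted p = 0.955), *Pou3f1* (0.642) and *Nr2f6* (0.187), and 3 of 6 were called beside 71.2% of all genes. Without replicate 2 it was lost for *Nr2f6* (0.153) and *Pou3f2* (0.102), and 4 of 6 were called beside 77.7%. Without replicate 3 all 6 were called, beside 48.8% of all genes.

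In size, the spread of the abundant members was below the median of the tested genes, which were not matched for level. The CV was 19.7% for *Nr2f1*, 18.2% for *Nr2f2* and 21.8% for *Pou3f3*, beside a median of 27.0% over the tested genes. *Pou3f1* at 36.1% and *Pou3f2* at 70.1% were above that median, and these are also the genes with the fewest counts. The tested genes had a median level of 14.0 CPM. With all libraries the median CV of the 6 members was 20.7%. It lay between 16.7% (without replicate 1) and 25.8% (without replicate 3) when a library was left out.

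Libraries of this experiment differed by exonic length. Genes of up to 2000 exonic bases were higher in replicate 3 than in the mean of the other 2 by a median of 0.64 on the log2 scale, whereas genes over 8000 bases had a median of -0.56. Between these lengths, where 5 of the 6 members lie, the median was -0.05. The same difference was 0.46 for *Nr2f1*, which has 5093 exonic bases, and -0.22 for *Nr2f2*, the only member over 8000. With a smooth trend on length and GC content removed, *Nr2f1* stood at 242, 214 and 255 CPM and its CV was 8.80%. The CV of *Nr2f6* moved the other way, from 4.64% to 20.5%, with 59.7, 64.5 and 42.8 CPM. The small spread of *Nr2f6* thus did not hold once the trend was removed, and replicate 3 remained the highest library for *Nr2f1*. *Nr2f2* was then highest in replicate 3 (111, 92.1 and 129 CPM), in place of replicate 1, and so was *Pou3f3*.

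Replicate 1 also stood apart in markers of other cell types. The summed level of 10 neuronal markers was 361, 26.5 and 37.6 CPM in replicates 1, 2 and 3, and 10 of 10 were highest in replicate 1. *Pou3f1*, *Pou3f2*, *Pou3f3* and *Nr2f2* were highest in that library too, but with the length and GC trend removed this held only for *Pou3f1* and *Pou3f2*. All marker sums here are given without that removal, so they may carry the trend. The sum of 6 markers of Schwann cell precursors and glia was 98.2, 25.2 and 26.4 CPM, with 5 of 6 highest in replicate 1, and that of 8 epithelial markers 391, 250 and 240 CPM, with 6 of 8 highest in replicate 1 and 2 in replicate 3. Forebrain and optic vesicle markers went the other way, with 26.1, 166 and 152 CPM over 8 genes and 0 of 8 highest in replicate 1, and 6 pigment cell markers, 1 of them at or under 3 counts in each library, summed to 4.97, 33.7 and 155 CPM. Endothelial markers summed to 292, 325 and 241, primitive red blood cell markers to 1947, 3633 and 4262, and cranial muscle precursor markers to between 22.5 (replicate 2) and 39.9 CPM (replicate 1). Facial mesenchyme markers, which check the labelled tissue, were high and near equal in sum, at 1632, 1772 and 1850 CPM over 12 genes. *Xist* measured 671 CPM in replicate 1 and 0.309 and 0.557 in the others, so sex differed in the same direction. The part of these cell types and of sex in the levels of the 6 genes was not tested, and in bulk tissue fewer cells of a type and less RNA per cell cannot be told apart.

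**Figure D4:**
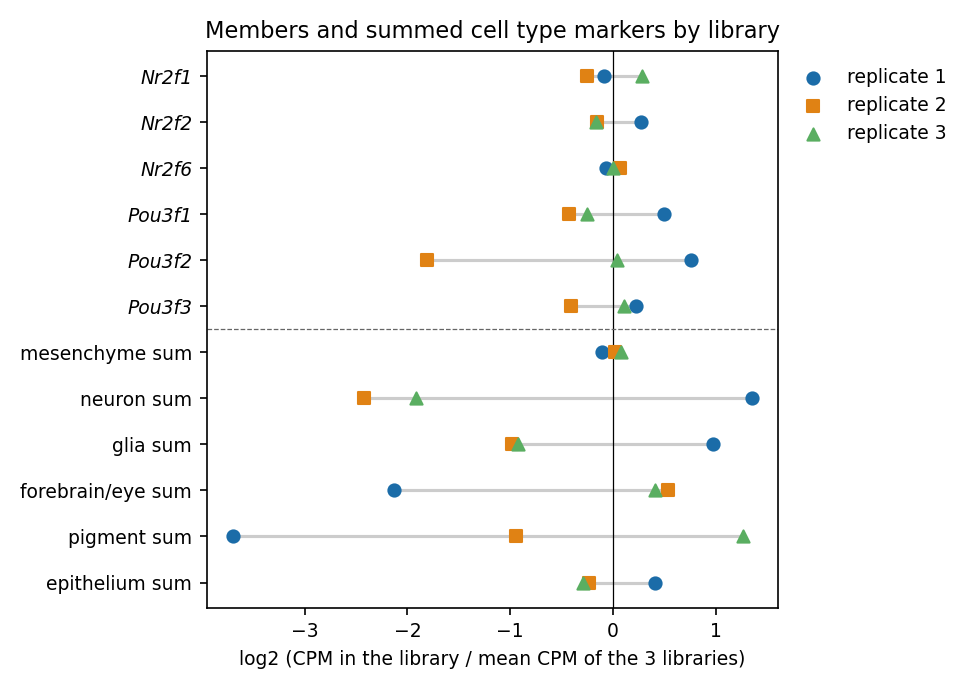
Level of each gene and summed level of 6 marker lists in each OE library, as log2 of the ratio of its CPM to the mean CPM of the 3 libraries. Replicate 1 (circles) is the highest for the neuron sum of 361 CPM, for the 3 POU3F genes and for *Nr2f2*, of which *Nr2f2* and *Pou3f3* turn to replicate 3 when the length and GC trend is removed.

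Within the NR2 receptors the other genes were lower than the 3 COUP-TF members, and within the POU factors they were lower than *Pou3f3*. Of 16 such genes, 8 had a mean count that reached 10 and 8 of those 8 exceeded counting noise (81.5% of all tested genes did), while 3 were at or under 3 counts in each library. The testicular receptor *Nr2c1* was the most abundant of them, at 5.86 CPM per kb, followed by the broadly used octamer factor *Pou2f1* at 1.94. *Nr2e1*, a receptor of forebrain and retinal progenitors, had 2, 221 and 227 counts, low where the forebrain and optic vesicle sum was low. *Pou4f1*, a sensory neuron factor, had 646, 33 and 47 counts, high where the neuronal sum was high. *Pou3f4*, the fourth POU3F paralog, measured 0.322 CPM per kb, beside 0.352 for *Pou3f1*.

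**Figure D5:**
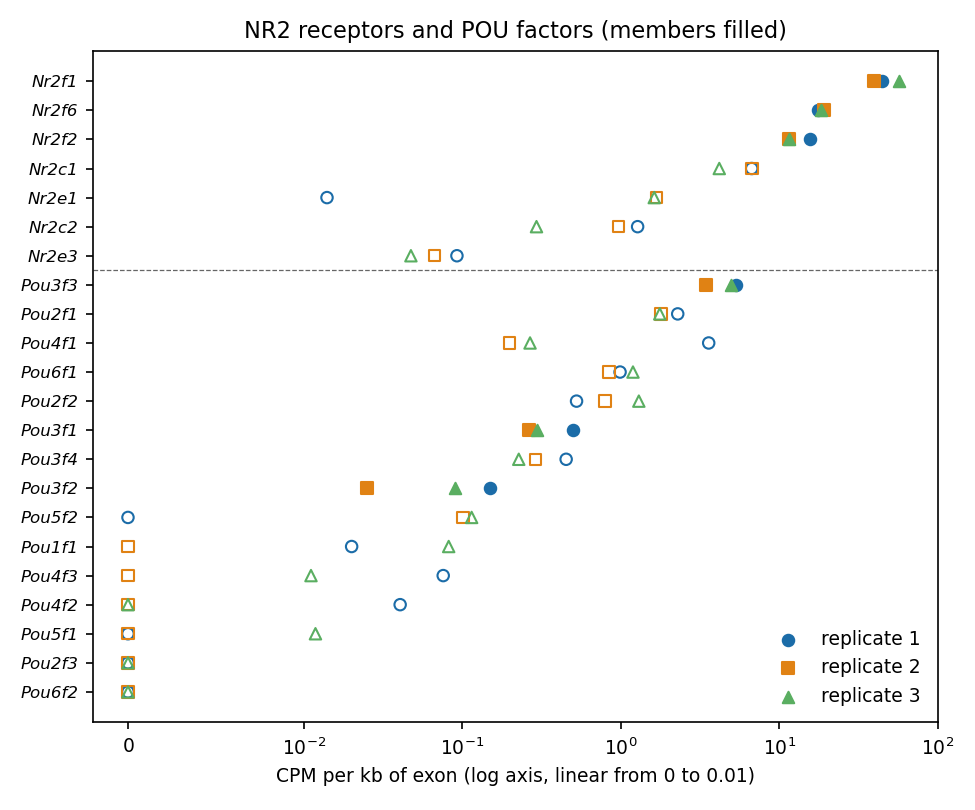
CPM per kb of exon of the NR2 receptors (above the dashed line) and POU factors (below it) in each OE library, on an axis that is linear from 0 to 0.01 and logarithmic above. The 6 members are filled; *Nr2f1* leads the NR2 genes with a mean of 47.0 and *Pou3f3* the POU genes with 4.58.

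Genes of upper jaw patterning ranged from 3.41 CPM per kb for the Notch ligand gene *Jag1* to 398 for *Barx1*, a mesenchymal homeobox gene that measured 237, 292 and 663 in replicates 1, 2 and 3. The 12 genes had a median of 19.3 CPM per kb, beside 3.45 over all tested genes, and 12 of 12 exceeded counting noise, beside the 81.5% of all tested genes. *Dlx2*, the gene switched on, measured 235, 201 and 183 CPM, and counts of its transgene and its own locus cannot be told apart. The median of the 12 genes includes *Dlx2*, at 72.3 CPM per kb, and would be lower without it. The LIM homeobox gene *Lhx8* stood at 67.2 and *Dlx1* at 11.5 CPM per kb. *Nr2f1*, at 47.0 CPM per kb, lay between *Lhx8* and *Dlx1*, and *Pou3f3*, at 4.58, lay below *Dlx1*.

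Lower jaw genes of the endothelin pathway had a median of 1.86 CPM per kb over 12 genes and ranged from 0.0354 for *Hand1*, with 5, 2 and 1 counts and so at or under the limit of 3 in 2 libraries, to 14.1 for *Ece1*, the gene of the endothelin-converting enzyme. The ranges of the upper and lower jaw lists overlap, and the lists were not tested against each other. Of the 11 whose mean count reached 10, 9 exceeded counting noise, a share close to the 81.5% of all tested genes. The ligand gene *Edn1* measured 0.314 and its receptor *Ednra* 5.05 CPM per kb. *Dlx3* stood at 6.87, *Gsc* at 5.03, *Dlx5* at 3.81, *Dlx6* at 0.622 and *Hand2* at 2.77. No library led the list: 5 of 12 genes were highest in replicate 1, 2 in replicate 2 and 5 in replicate 3, and the summed level was 173, 164 and 144 CPM. *Dlx5*, *Dlx6* and *Gsc*, a homeobox gene of the lower jaw with 53, 82 and 583 counts, were highest in replicate 3, whereas *Edn1*, *Ece1*, *Mef2c*, *Dlx3* and *Hand1* were highest in replicate 1 and *Ednra* and *Hand2* in replicate 2.

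Partners and cofactors of both families were all detected, and 15 of 15 entered the test, of which 12 exceeded counting noise, again close to 81.5%. Their median was 13.7 CPM per kb. Among the retinoid X receptors, *Rxrb* stood at 27.3 and *Rxra* at 17.7 CPM per kb, and *Rxra* did not exceed counting noise. The friend-of-GATA cofactor *Zfpm1* measured 15.3 and *Zfpm2* 0.124. *Bcl11a* and *Bcl11b*, which encode zinc-finger proteins known to bind COUP-TF, stood at 2.51 and 3.53. Of the SOX genes, *Sox11* was the highest at 73.7, above each of the 6 members, and *Sox2* stood at 11.4.

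The genes closest to a member in their pattern over the 3 libraries were sought among 11279 protein-coding genes whose mean count reached 100, by Euclidean distance of centred log2 CPM. For *Nr2f1* they were *Pgf*, *Sp7* and *Crtap*, and 79 genes lay within 0.1. For *Nr2f2* they were *Myof*, *Lypd6* and *Cacna2d2* (68 genes), for *Nr2f6* *H2afy2*, *Dot1l* and *Dhx16* (598 genes), and for *Pou3f3* *Klc3*, *Zbtb42* and *Rims3* (18 genes). *Pou3f1* and *Pou3f2* had too few counts to be placed. With 3 libraries many genes share a pattern closely, and no function is read from it.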

How the data were processed

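Bulk RNA-Seq of 3 OE maxillary process samples (E10.5) was analysed. The authors mapped 150 bp paired-end reads to mm10 and deposited whole-number counts per gene. The submitters' processing notes name STAR 2.7.3a and HTSeq 0.12.4, and the strand setting and annotation release were not given in the sources used here. Rows that name no gene held 14.2%, 15.7% and 16.4% of reads and were left out. Counts on genes were 36544554, 35351031 and 40057435, and 3 counts equal 0.0777, 0.0843 and 0.0796 CPM on the TMM-scaled totals.

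From these, CPM with TMM scaling and dispersions were computed in edgeR 4.0.16 (R 4.3.3), with exon lengths from GENCODE M21 (55141 of 55401 identifiers matched). Length is the union of all exons of a gene. Counting noise was tested by chi-square at an adjusted p of 0.05. Removal of the length and GC trend used mgcv 1.9.3 and was a check added after the data were seen. Scripts were tested on simulated data. DESeq2 size factors, other lengths and leaving out each library were tried. Members, the 13 gene lists and the tests were chosen with earlier results of these data known. Genes named were the members, list genes, genes within 10 kb and the 3 genes nearest in pattern. A gene of the upper jaw list is not reported here. *Xist* was named after its values were seen.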

Additional observations from a re-analysis of the deposited data

How the results depend on the processing

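Of 113 alternative values over 18 results, 102 kept their side of the threshold or moved by less than the limits set for a change. The limit for a member's mean CPM was 1 SD over the 3 libraries, and leaving out 1 library cannot move a mean that far. Removal of the length and GC trend works on centred values and nearly keeps each mean. Many of the 102 were thus the same by construction and say little about stability. With each library left out in turn, the number of members beyond counting noise ranged from 3 (without replicate 1) to 6. The biological coefficient of variation over the tested genes, 0.371 in full, ranged from 0.221 (without replicate 3) to 0.474. With coding length, and likewise with the longest transcript, 4 of 6 genes kept their rank per length, and *Nr2f2* and *Nr2f6* changed places. The share of *Pou3f3* among the POU3F members, without *Pou3f4*, was 94.5% with coding length. That of *Nr2f1* in its family was 46.8% on unshared exonic bases, an alternative chosen after seeing the data. With the length and GC trend removed, the highest library of *Nr2f2* and *Pou3f3* turned from replicate 1 to replicate 3, and the cause of the trend was not tested. No paired analysis was possible because all 3 libraries belong to 1 group and the labels give no replicate numbers. Depth limits the 2 rarest genes: 5 counts of *Pou3f2* in replicate 2 are close to the limit of 3 counts.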
